A study of Mus musculus with 9 samples.

Results

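The 10 genes described here are heat shock chaperones and the co-chaperone that links them to autophagy: Bag3, the small heat shock proteins Hspb1 and Hspb8, the Hsp70 genes Hspa8, Hspa1a and Hspa1b, the J-domain gene Dnajb1, the Hsp110 gene Hsph1, and the cytosolic Hsp90 genes Hsp90aa1 and Hsp90ab1. They were taken by symbol from the 23420 rows of an RNA-seq table, and all 10 were found once each. They were chosen by their TPM levels in all 9 libraries, which were in view, together with their known function, so their values are given as a description. The libraries came from neural stem cells grown from the hippocampus of wild type C57BL/6J mice at 2 days of age and kept, in every group, in medium without the growth factors bFGF and EGF, in which such cells leave the stem cell state. The 3 groups were cells given NAT, which the labels call only a small molecule compound, cells given P7C3-A20, an aminopropyl carbazole known for protecting newborn hippocampal neurons, and cells given the DMSO vehicle, with 3 libraries each. Both compounds were given at 3 µM, where the prefix of the unit is missing in the labels and was read as micro. The labels call the libraries biological replicates without saying whether they came from separate animals or cultures, so the spread between them may be partly technical. How long the cells were treated is not given in the sources used here.

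Cytosolic Hsp70 binds unfolded stretches of protein in a cycle driven by ATP. J-domain proteins such as Dnajb1 start the cycle by stimulating ATP hydrolysis. Nucleotide exchange factors such as Hsph1 and Bag3 end it by releasing ADP and the client. Bag3 also binds Hspb8 and the autophagy receptor p62, and so sends clients of Hsp70 to autophagic degradation, while Hsp90 takes over clients that are close to their final fold. After heat or proteotoxic stress the transcription factor Hsf1 switches on Bag3, Hspb1, Hspa1a, Hspa1b, Dnajb1 and Hsph1 together by binding heat shock elements, which are GAA units repeated in alternating orientation.

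The stretches around the start sites of the members are shown first, because the heat shock element is the sequence by which Hsf1 is known to act on genes of this kind. A window from 250 bases before to 50 bases after the start was held by the RefSeq promoter table (build GRCm38.p6) for 7 of the 10 genes. Hspa8, Hsp90aa1 and Hsp90ab1 had none there. Both strands were searched for the core of a heat shock element, GAANNTTC or TTCNNGAA, each of which reads the same on both strands. Of the 7 genes, 6 held at least 1 match. So did 15.1% of the 32851 windows in the table and 13.7% of the 10050 tested genes with a window. The members were chosen as heat shock genes, and the 6 include the near copies Hspa1a and Hspa1b, so the contrast is no test. Bag3, Hspb8 and Hspb1 each held the same 8 letters, which were found on either strand in 1.2% of all windows. The stretches of 30 bases that hold these matches are given with the match in capitals.
Bag3 (chr7:128523603-128523632, plus strand): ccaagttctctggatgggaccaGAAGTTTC
Hspb8 (chr5:116422844-116422873, minus strand): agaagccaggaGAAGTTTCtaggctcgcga
Hspb1 (chr5:135887791-135887820, plus strand): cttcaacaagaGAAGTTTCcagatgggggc
Hspa1a (chr17:34972242-34972271, minus strand): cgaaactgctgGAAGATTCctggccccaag
Hsph1 (chr5:149636351-149636380, minus strand): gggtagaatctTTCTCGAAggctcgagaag
With the first transcribed base as 1, the match began at position 43 in Bag3 and 3 in Hspb8, and 117 bases before the start in Hspb1. Hspa1b held the same 30 bases as Hspa1a, and the 300-base windows of this gene pair differed at 4 positions. Hsph1 had further matches after its start, and those of its first window overlapped to give the longer form in which both cores share their middle GAA unit, which was held by 0.6% of all windows. Dnajb1 held no match in either of its 2 windows. That says only that these letters are not in these windows. The whole windows of Bag3 and Dnajb1 are given because these are the members whose levels in the compound libraries lay farthest from DMSO, on opposite sides.
Bag3 (chr7:128523333-128523632, plus strand): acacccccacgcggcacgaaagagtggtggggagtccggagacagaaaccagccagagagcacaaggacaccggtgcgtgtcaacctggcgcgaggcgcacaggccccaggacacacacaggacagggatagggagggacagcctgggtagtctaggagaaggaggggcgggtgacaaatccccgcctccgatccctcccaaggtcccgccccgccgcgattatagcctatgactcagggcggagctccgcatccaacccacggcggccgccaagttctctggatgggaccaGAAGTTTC
Dnajb1 (chr8:83607925-83608224, plus strand, first window): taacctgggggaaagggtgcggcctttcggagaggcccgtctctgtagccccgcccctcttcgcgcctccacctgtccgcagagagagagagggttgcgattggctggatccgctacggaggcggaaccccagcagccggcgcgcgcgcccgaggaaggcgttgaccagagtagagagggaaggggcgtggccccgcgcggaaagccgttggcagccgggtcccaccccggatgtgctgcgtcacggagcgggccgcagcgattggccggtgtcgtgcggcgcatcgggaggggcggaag
A match is a description of the sequence, and binding of Hsf1 was not measured here.

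Levels are in TPM, for which the authors divided reads by gene length and scaled each library to the same total, so levels may be compared between genes. The reads behind a level were recovered from the steps in which low TPM values rise. The libraries then held 12994081 to 13803959 reads with NAT, 15885313 to 17217584 with P7C3-A20 and 12028821 to 14109316 with DMSO. Markers of the labelled cell type were high, since 7 neural progenitor genes including Nes and Sox2 summed to 17356 to 19370 TPM over the 9 libraries. Of 6 microglial markers, Cx3cr1, Ctss, Trem2 and C1qc were at 0 in every library, and the 6 summed to 0.18 to 0.80 TPM. Of 5 endothelial markers, Cldn5 and Cdh5 were at 0 in every library, and the 5 summed to 1.60 to 2.32 TPM. Comparisons between groups used log2(TPM + 1) in 1 limma fit over the 9 libraries and the 13839 genes with at least 1 TPM in at least 3 libraries, which all 10 members passed. A gene counted as called at a Benjamini-Hochberg adjusted p under 0.05 over all of these genes. The comparisons of NAT and of P7C3-A20 with DMSO share the DMSO libraries.

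Bag3, the exchange factor that hands Hsp70 clients to autophagy, was the member whose levels with both compounds did not overlap with those of DMSO. It stood at 48.6, 51.9 and 51.8 TPM in NAT replicates 1, 2 and 3, at 48.8, 50.9 and 51.3 TPM in the P7C3-A20 replicates, and at 40.3, 44.3 and 42.2 TPM in the DMSO replicates. All 6 compound libraries lay above all 3 DMSO libraries, with a gap from 44.3 TPM in the highest DMSO library to 48.6 TPM in the lowest compound library. The 2 compounds overlapped fully. Of all tested genes, 14.1% lay above DMSO without overlap with NAT and 13.1% did with P7C3-A20. The share that did so with both compounds at once was not counted. Bag3 averaged 50.8 ± 1.87 TPM with NAT, 50.3 ± 1.31 TPM with P7C3-A20 and 42.3 ± 2.04 TPM with DMSO (SD, n = 3 each). On the log2(TPM + 1) scale the difference was 0.26 ± 0.05 (SE) for NAT against DMSO, with a 95% interval of 0.15 to 0.36, which is 1.20-fold. The difference for P7C3-A20 against DMSO was 0.25 ± 0.05, with an interval of 0.14 to 0.35, or 1.19-fold. The level rested on 585 to 661 reads with NAT, 729 to 819 with P7C3-A20 and 482 to 550 with DMSO. In bulk samples such as these, more cells of a type and more RNA per cell cannot be told apart.

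Other measures of the libraries are set beside the Bag3 levels. Among them only the neural progenitor sum separated both compounds from DMSO. The summed level of the 7 neural progenitor markers was 18329 to 18785 TPM with NAT, 17356 to 18257 TPM with P7C3-A20 and 18951 to 19370 TPM with DMSO, so every compound library lay below every DMSO library. The 5 astrocyte markers summed to 3953 to 4178 TPM with NAT, 3839 to 4066 TPM with P7C3-A20 and 3723 to 4005 TPM with DMSO, and these ranges overlapped. The 5 oligodendrocyte lineage markers summed to 975 to 997 TPM with NAT, 1002 to 1120 TPM with P7C3-A20 and 1032 to 1067 TPM with DMSO, so the NAT libraries lay below the others. The 5 neuronal markers overlapped between all groups. Libraries also differed in how levels leaned with the GC content of genes, and the transcript of Bag3 has 56.1% GC against a median of 49.7% over the tested genes. The lean, in log2 units per 10 points of GC, was -0.06 to 0.01 in the NAT libraries, 0.02 to 0.12 in the P7C3-A20 libraries and -0.05 to -0.01 in the DMSO libraries. With this trend removed from each library, Bag3 was 0.23 above DMSO on the log2 scale with NAT and 0.17 above it with P7C3-A20. The part of the marker sums in the Bag3 values was not tested.

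**Figure D1:**
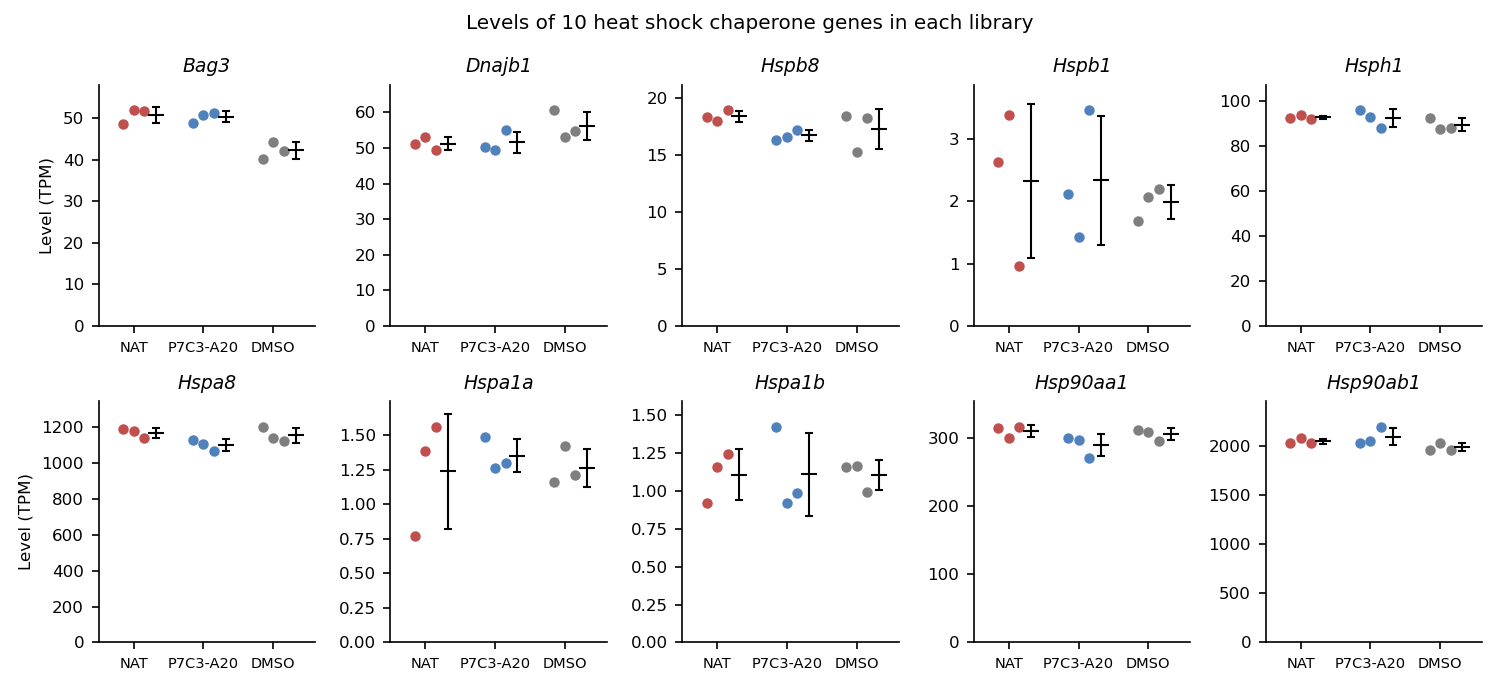
Levels in TPM of the 10 genes in each library, 1 panel a gene with its own axis from 0. Points are the 3 libraries of NAT, P7C3-A20 and DMSO, and the bar beside them is the mean with its SD. Bag3 is the gene in which all 6 compound libraries lie above the DMSO libraries, while those of Hspa8, Hsph1, Hsp90aa1 and Hsp90ab1 overlap between the compounds and DMSO.

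Dnajb1, the J-domain partner that loads clients onto Hsp70, leaned the other way. Its level was 51.1, 53.0 and 49.4 TPM in NAT replicates 1, 2 and 3, and 50.3, 49.5 and 55.0 TPM in the P7C3-A20 replicates, against 60.6, 53.2 and 54.7 TPM in the DMSO replicates. The NAT libraries lay just below those of DMSO, and the P7C3-A20 libraries overlapped with them. The mean was 51.1 ± 1.80 TPM with NAT, 51.6 ± 2.96 TPM with P7C3-A20 and 56.2 ± 3.90 TPM with DMSO (SD, n = 3 each). The log2 difference from DMSO was -0.13 ± 0.06 with NAT (95% interval -0.26 to -0.003) and -0.12 ± 0.06 with P7C3-A20 (interval -0.25 to 0.01). DMSO replicate 1 was the highest of the 9 libraries, and without it the differences were -0.08 and -0.06.

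The balance of Bag3 to its partners within a library is given as a description, since the separation of Bag3 alone carries over to such ratios and Dnajb1 was paired with it after the values of both were seen. The ratio of Bag3 to Dnajb1 TPM was 0.951, 0.980 and 1.05 in NAT replicates 1, 2 and 3, 0.970, 1.03 and 0.933 in the P7C3-A20 replicates, and 0.665, 0.834 and 0.771 in the DMSO replicates. Both transcripts were thus about equal in the compound libraries, and Bag3 was the lower of the pair in every DMSO library. The mean ratio was 0.993 ± 0.0502 with NAT, 0.977 ± 0.0477 with P7C3-A20 and 0.757 ± 0.0855 with DMSO (SD, n = 3 each). Relative to Hspa8, the constitutive Hsp70 that both proteins serve, Bag3 stood at 0.0409 to 0.0455 with NAT, 0.0433 to 0.0481 with P7C3-A20 and 0.0335 to 0.0390 with DMSO; Hspa8 differed little between groups, so this restates the Bag3 levels. Relative to Hspb8 it stood at 2.65 to 2.89 with NAT, 2.98 to 3.06 with P7C3-A20 and 2.19 to 2.91 with DMSO, where the NAT libraries fell inside the DMSO range.

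**Figure D2:**
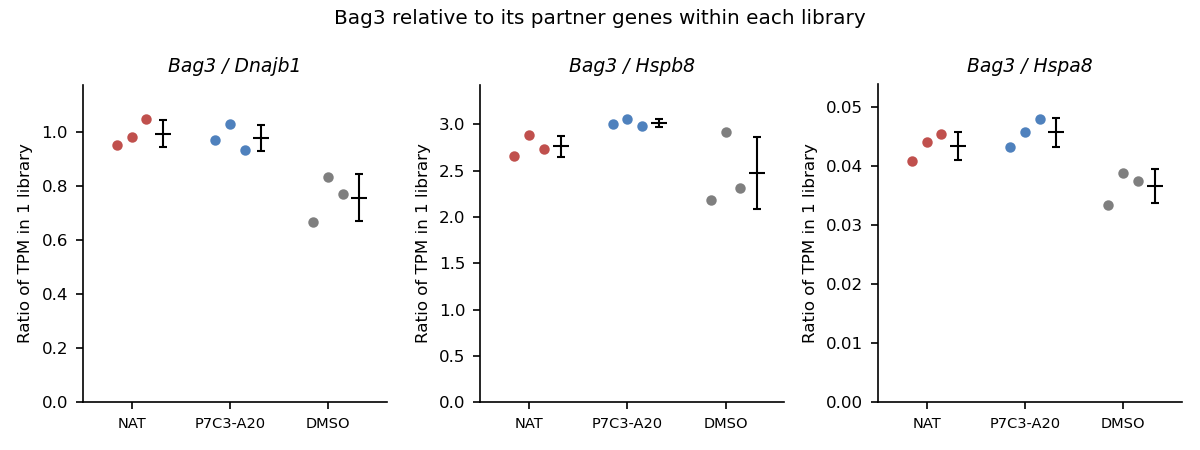
Ratio of Bag3 TPM to that of Dnajb1, Hspb8 and Hspa8 within each library, with axes from 0. Points are the 3 libraries of NAT, P7C3-A20 and DMSO, and bars are the mean with its SD. The ratio to Dnajb1 is near 1 in the compound libraries (means 0.993 and 0.977) and 0.757 on average in the DMSO libraries.

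The small heat shock proteins hold unfolded clients in a refoldable state, and Hspb8 is the direct binding partner of Bag3. Hspb8 was at 18.3, 18.0 and 18.9 TPM in NAT replicates 1, 2 and 3, at 16.3, 16.6 and 17.2 TPM in the P7C3-A20 replicates, and at 18.4, 15.2 and 18.2 TPM in the DMSO replicates. Both compounds overlapped with DMSO, whose replicate 2 was the lowest of all. The log2 difference from DMSO was 0.09 ± 0.07 with NAT and -0.04 ± 0.07 with P7C3-A20. Every NAT library lay above every P7C3-A20 library, with a difference of 0.13 ± 0.07 (interval -0.03 to 0.29). Hspb1, the small heat shock protein also called Hsp25 in mice, was nearly silent, at 0.967 to 3.38 TPM with NAT, 1.43 to 3.46 TPM with P7C3-A20 and 1.68 to 2.20 TPM with DMSO. Its level rested on 4 to 18 reads a library, so differences from DMSO could not be detected below the width of the intervals, which ran from -0.55 to 0.72 with NAT and from -0.52 to 0.75 with P7C3-A20. Of the transcript of Hspb1, 51.6% of stretches of 50 bases also occur in the pseudogene Hsp25-ps1, so its reads may be shared.

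Among the Hsp70 genes, Hspa8, which is made at all times, carried nearly the whole level. It was at 1189, 1176 and 1137 TPM in NAT replicates 1, 2 and 3, at 1128, 1108 and 1066 TPM in the P7C3-A20 replicates, and at 1202, 1138 and 1123 TPM in the DMSO replicates. Both compounds overlapped with DMSO, and every NAT library lay above every P7C3-A20 library. The log2 difference from DMSO was 0.02 ± 0.04 with NAT and -0.07 ± 0.04 with P7C3-A20, and NAT stood 0.09 ± 0.04 above P7C3-A20. Hspa1a and Hspa1b, the neighbouring stress-inducible Hsp70 genes that rise steeply after heat shock, were barely detected. Hspa1a stood at 0.770 to 1.56 TPM with NAT, 1.27 to 1.49 TPM with P7C3-A20 and 1.16 to 1.42 TPM with DMSO, on 10 to 24 reads. Hspa1b stood at 0.920 to 1.24 TPM with NAT, 0.917 to 1.42 TPM with P7C3-A20 and 0.991 to 1.16 TPM with DMSO, on 12 to 23 reads. All groups overlapped for both genes. Of the 50-base stretches of Hspa1a, 58.8% also occur in Hspa1b. The sum of both genes is the safer value if reads of such stretches were split between them. If such reads were dropped, they are missing from the sum as well, and it is uncertain to that extent. The sum was 1.69 to 2.80 TPM with NAT, 2.18 to 2.91 TPM with P7C3-A20 and 2.20 to 2.58 TPM with DMSO. Hspa8 was 387 to 704 times as high as this sum across the 9 libraries. Of its own transcript, 73.2% of such stretches occur in other annotated genes, chiefly the pseudogene Gm15459, so the level of Hspa8 is uncertain to the extent that the authors' counting shared reads among them.

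Hsph1, the Hsp110 that acts as an exchange factor for Hsp70 and is a strong target of Hsf1, was at 92.4, 93.7 and 92.1 TPM in NAT replicates 1, 2 and 3, at 95.9, 93.0 and 88.0 TPM in the P7C3-A20 replicates, and at 92.7, 87.6 and 88.0 TPM in the DMSO replicates. The groups overlapped, and the log2 difference from DMSO was 0.05 ± 0.04 with NAT (interval -0.04 to 0.14) and 0.04 ± 0.04 with P7C3-A20 (interval -0.04 to 0.13).

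Hsp90ab1, the constitutive cytosolic Hsp90, was the most abundant member. It was at 2033, 2083 and 2036 TPM in NAT replicates 1, 2 and 3, at 2034, 2059 and 2199 TPM in the P7C3-A20 replicates, and at 1966, 2037 and 1967 TPM in the DMSO replicates, and the groups overlapped. Its log2 difference from DMSO was 0.04 ± 0.04 with NAT and 0.07 ± 0.04 with P7C3-A20. Hsp90aa1, the stress-responsive cytosolic Hsp90, was at 315, 300 and 317 TPM in NAT replicates 1, 2 and 3, at 301, 297 and 271 TPM in the P7C3-A20 replicates, and at 313, 310 and 296 TPM in the DMSO replicates. These groups overlapped as well, with the lowest value in P7C3-A20 replicate 3. Its log2 difference from DMSO was 0.02 ± 0.04 with NAT and -0.08 ± 0.04 with P7C3-A20, and NAT stood 0.10 ± 0.04 above P7C3-A20. Of the 50-base stretches of Hsp90aa1, 58.5% occur in 4 other annotated genes, and of those of Hsp90ab1 4.5% do.

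Ordered by level, Hsp90ab1 came first in every library, followed by Hspa8, Hsp90aa1 and Hsph1, whose ranges over the 9 libraries did not overlap with one another. Dnajb1 (49.4 to 60.6 TPM) and Bag3 (40.3 to 51.9 TPM) came next and overlapped over all libraries, though not among the DMSO libraries. Hspb8 followed at 15.2 to 18.9 TPM. The last 3 genes, Hspb1, Hspa1a and Hspa1b, overlapped with one another. By mean level over 13839 tested genes, Hsp90ab1 ranked 27th with NAT, 25th with P7C3-A20 and 28th with DMSO. Bag3 ranked 4364th with NAT, 4347th with P7C3-A20 and 4998th with DMSO. Hsp90ab1 and Hspa8 together made up 85.6% to 87.0% of the TPM of the 10 members. The summed level of the members was 3746 ± 38.2 TPM with NAT, 3703 ± 43.0 TPM with P7C3-A20 and 3660 ± 58.1 TPM with DMSO (SD, n = 3 each).

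Counted as a list, the members resembled the rest of the transcriptome. For NAT against DMSO, 1 of the 10 members (Bag3) lay above DMSO without overlap, where 14.1% of all tested genes did, and 1 (Dnajb1) lay below it, where 4.89% did. For P7C3-A20 against DMSO, 1 member (Bag3) lay above without overlap, where 13.1% of all tested genes did, and 0 lay below, where 7.49% did. The median log2 difference of the members was 0.03 with NAT and 0.02 with P7C3-A20, against 0.03 and 0.01 over all tested genes. Under the limma threshold, 0 members were called for NAT against DMSO, where 0.0289% of all tested genes were, 0 between P7C3-A20 and DMSO, where 0.0217% were, and 0 between NAT and P7C3-A20, where 0% were. At an unadjusted p under 0.05 the counts were 2 members (Bag3 and Dnajb1), 1 member (Bag3) and 2 members (Hspa8 and Hsp90aa1), where 11.7%, 15.9% and 15.8% of all tested genes were, so the members' counts lie near the background. With voom on the recovered reads, Bag3 was called for P7C3-A20 against DMSO, where 1.79% of tested genes were, and no other member was called in any comparison, where voom called 0.202% of genes between NAT and DMSO and 2.33% between the compounds. For P7C3-A20 against DMSO, Bag3 was thus past the threshold with voom and not with limma. For NAT against DMSO it passed with neither. Since the members were chosen with these values in view, the calls and intervals describe them and are no independent test.

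**Figure D3:**
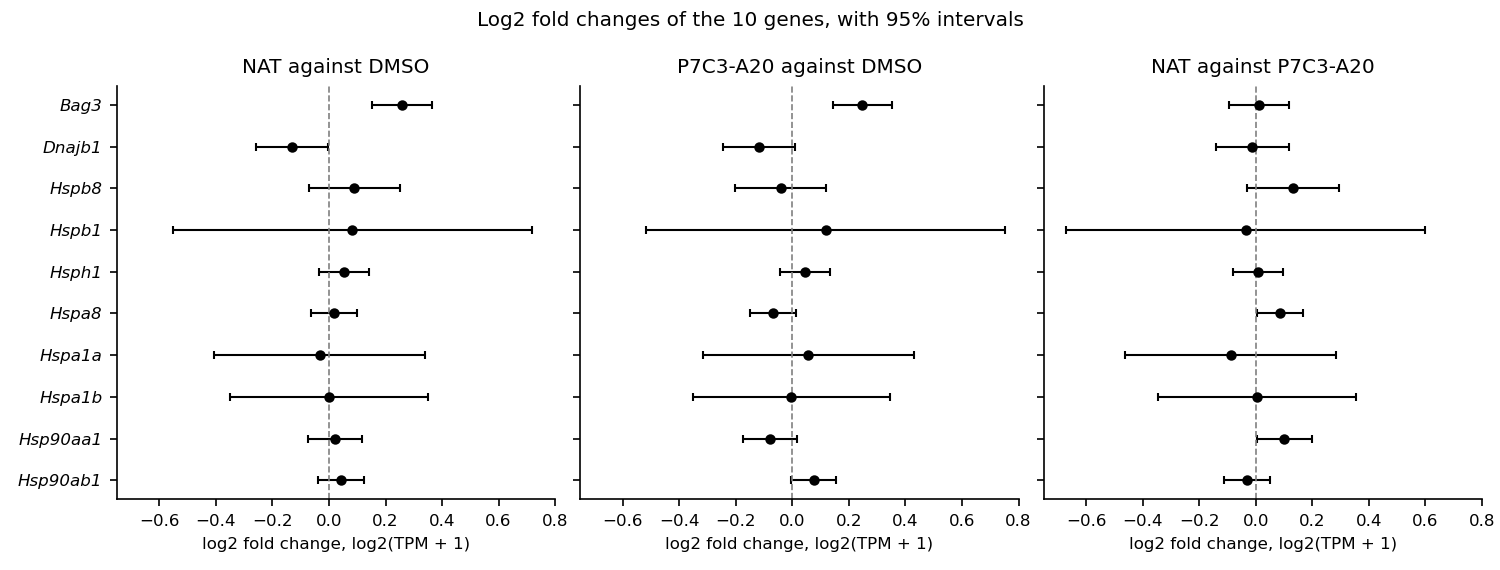
Log2 differences of the 10 genes on the log2(TPM + 1) scale for NAT over DMSO, P7C3-A20 over DMSO and NAT over P7C3-A20. Points are the fitted differences and bars the 95% intervals. The interval of Bag3 lies above 0 against DMSO for both compounds (0.15 to 0.36 and 0.14 to 0.35), and the intervals of Hspb1, Hspa1a and Hspa1b are wide because few reads lie behind them.

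The compounds were compared with each other at the same dose as 1 pair. Bag3 differed between NAT and P7C3-A20 by 0.01 ± 0.05 on the log2 scale, with a 95% interval of -0.09 to 0.12, so a difference as large as that of either compound from DMSO lies outside the interval. Dnajb1 differed by -0.01 ± 0.06 (interval -0.14 to 0.12) and Hsph1 by 0.01 ± 0.04 (interval -0.08 to 0.10). Among the members, 2 lay higher with NAT than with P7C3-A20 without overlap (Hspa8 and Hspb8), where 13.3% of all tested genes did, and 0 lay lower, where 8.35% did. With quantile normalization the Hspa8 difference was 0.15, and with the GC trend removed it was 0.04. That of Hsp90aa1 was 0.03 with the GC trend removed.

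Beyond the members, 71 genes of the chaperone network in 10 lists were examined, of which 64 passed the filter. Under the limma threshold 0 of them were called in any of the 3 comparisons, and an unadjusted p under 0.05 was reached by 9 between NAT and DMSO, 12 between P7C3-A20 and DMSO, and 10 between the compounds. These are 14.1%, 18.8% and 15.6% of the 64, against 11.7%, 15.9% and 15.8% of all tested genes. The lowest adjusted p was 0.210, 0.158 and 0.168 in the same comparisons. Voom on the recovered reads called 0, 0 and 2 of them, and the last count is 3.12% of the 64 where voom called 2.33% of all tested genes. Between NAT and DMSO 42 were positive and 22 negative, with a median of 0.03, and between P7C3-A20 and DMSO 36 were positive and 28 negative, with a median of 0.02. Those medians lie next to 0.03 and 0.01 over all tested genes, among which the share of positive genes was not counted. The differences of single list genes are given without GC correction, and the P7C3-A20 libraries leaned towards genes of high GC content. With the GC trend removed, 1505 of 13701 genes reached an unadjusted p under 0.05 in limma between P7C3-A20 and DMSO. Without removal 2194 of 13839 did. The part of GC content in the list gene values was not tested. The genes named from the lists are among the 2 of lowest p of their list in a comparison, except where said otherwise. That choice favours groups that do not overlap. Of the 64, 11 lay above DMSO without overlap with NAT and 4 below, where 14.1% and 4.89% of all tested genes did. With P7C3-A20 10 lay above and 4 below, where 13.1% and 7.49% did. Between the compounds 7 lay higher with NAT and 6 lower, where 13.3% and 8.35% did.

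The list closest to Bag3 in function holds its 5 partners in selective autophagy. For P7C3-A20 against DMSO all 5 were positive, with a median log2 difference of 0.08 against 0.01 over all tested genes. For NAT against DMSO 4 were positive, with a median of 0.07 against 0.03. In both comparisons 0 of them passed the threshold. Hdac6, the deacetylase that carries aggregates along microtubules, averaged 39.1 ± 0.905 TPM with NAT, 38.3 ± 0.844 TPM with P7C3-A20 and 34.1 ± 2.27 TPM with DMSO, without overlap between either compound and DMSO. Its differences from DMSO were 0.19 ± 0.05 and 0.16 ± 0.05. Synpo2, a Bag3 partner in the fusion of autophagosome membranes, averaged 7.72 ± 0.565 TPM with NAT, 7.45 ± 0.400 TPM with P7C3-A20 and 6.36 ± 0.945 TPM with DMSO, with overlap. Sqstm1, which encodes the receptor p62, was 0.06 ± 0.04 above DMSO with NAT and 0.08 ± 0.04 above it with P7C3-A20.

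Of the 6 genes listed as other BAG proteins and exchange factors, 4 were positive with NAT and 5 with P7C3-A20 against DMSO. Bag6, which guards newly made membrane proteins, averaged 202 ± 9.08 TPM with NAT, 219 ± 8.98 TPM with P7C3-A20 and 196 ± 4.39 TPM with DMSO, and was 0.16 ± 0.04 above DMSO with P7C3-A20 without overlap. Bag4, an inhibitor of death receptor signalling, leaned the other way, at 17.1 ± 0.811 TPM with NAT, 15.3 ± 1.87 TPM with P7C3-A20 and 17.5 ± 1.06 TPM with DMSO, which put P7C3-A20 at -0.19 ± 0.09 against DMSO, with overlap. In ageing human fibroblasts BAG3 is known to gain on BAG1, which sends clients to the proteasome instead. Bag1, singled out after its values were seen, averaged 151 ± 6.50 TPM with NAT, 154 ± 4.55 TPM with P7C3-A20 and 151 ± 0.642 TPM with DMSO, and differed from DMSO by 0.00 ± 0.04 and 0.02 ± 0.04. Stub1, the ubiquitin ligase CHIP that marks Hsp70 clients for degradation, stood apart by compound, at 38.2 ± 1.39 TPM with NAT, 45.2 ± 1.97 TPM with P7C3-A20 and 40.1 ± 1.87 TPM with DMSO. It was -0.24 ± 0.05 for NAT against P7C3-A20 in limma, and voom called it there (-0.26, adjusted p = 0.0405).

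Hsf1 itself, the master factor of the response, averaged 30.9 ± 2.04 TPM with NAT, 33.3 ± 1.75 TPM with P7C3-A20 and 29.0 ± 1.04 TPM with DMSO. Its P7C3-A20 libraries lay above those of DMSO by 0.20 ± 0.06 without overlap, and the NAT difference was 0.09 ± 0.06. Of 6 further targets of Hsf1, 5 were positive against DMSO with each compound. Their medians were 0.05 for NAT and 0.09 for P7C3-A20, against 0.03 and 0.01 over all tested genes. Among the members that Hsf1 is known to switch on, Bag3 lay above DMSO and Dnajb1 leaned below it. Whether these values follow from Hsf1 was not tested. Serpinh1, the collagen chaperone Hsp47, averaged 255 ± 2.23 TPM with NAT, 267 ± 5.91 TPM with P7C3-A20 and 248 ± 6.84 TPM with DMSO. Dnaja4, a J-domain partner of Hsp70, averaged 15.1 ± 1.77 TPM with NAT, 15.3 ± 1.93 TPM with P7C3-A20 and 12.7 ± 0.810 TPM with DMSO, a difference of 0.23 ± 0.10 and 0.25 ± 0.10 from DMSO with overlap. Dnaja1, another J-domain partner, averaged 60.7 ± 0.678 TPM with NAT, 59.5 ± 1.91 TPM with P7C3-A20 and 63.2 ± 0.525 TPM with DMSO. Against DMSO it stood at -0.06 ± 0.04 with NAT and -0.09 ± 0.04 with P7C3-A20, both without overlap. Of the 71 network genes, tested or not, 60 had a RefSeq promoter window, and 18 of these held the core motif searched above. Among the 10050 tested genes with a window 13.7% did. The lists were drawn up by function, so this is a description and no test.

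The remaining lists held values in both directions. Hspe1, the mitochondrial co-chaperonin, averaged 217 ± 7.22 TPM with NAT, 243 ± 2.74 TPM with P7C3-A20 and 242 ± 2.52 TPM with DMSO, and its NAT libraries lay below both other groups without overlap. The limma difference was -0.16 ± 0.03 against DMSO and -0.16 ± 0.03 against P7C3-A20, and voom called the second (-0.17, adjusted p = 0.0440). Of the 8 subunits of TRiC, the chaperonin that folds actin and tubulin, 5 were negative with NAT and 6 with P7C3-A20 against DMSO, and all lay between -0.08 and 0.03. Fkbp5, the Hsp90 co-chaperone that damps glucocorticoid receptor signalling, averaged 30.2 ± 1.49 TPM with NAT, 26.3 ± 1.92 TPM with P7C3-A20 and 26.2 ± 0.225 TPM with DMSO, which put NAT 0.20 ± 0.06 above DMSO without overlap. Hspa4, an Hsp110 like Hsph1, averaged 214 ± 2.00 TPM with NAT, 202 ± 3.69 TPM with P7C3-A20 and 204 ± 3.45 TPM with DMSO. Cryab, the small heat shock protein alpha B-crystallin, averaged 48.5 ± 3.84 TPM with NAT, 50.2 ± 6.26 TPM with P7C3-A20 and 49.4 ± 5.09 TPM with DMSO, so it was expressed near the level of Bag3 and its groups overlapped. The 7 genes that did not pass the filter were the small heat shock proteins Cryaa, Hspb2, Hspb3 and Hspb7, the Hsp70 relative Hspa12b, and the factors Hsf4 and Hsf5, with at most 21 reads in a library.

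**Figure D4:**
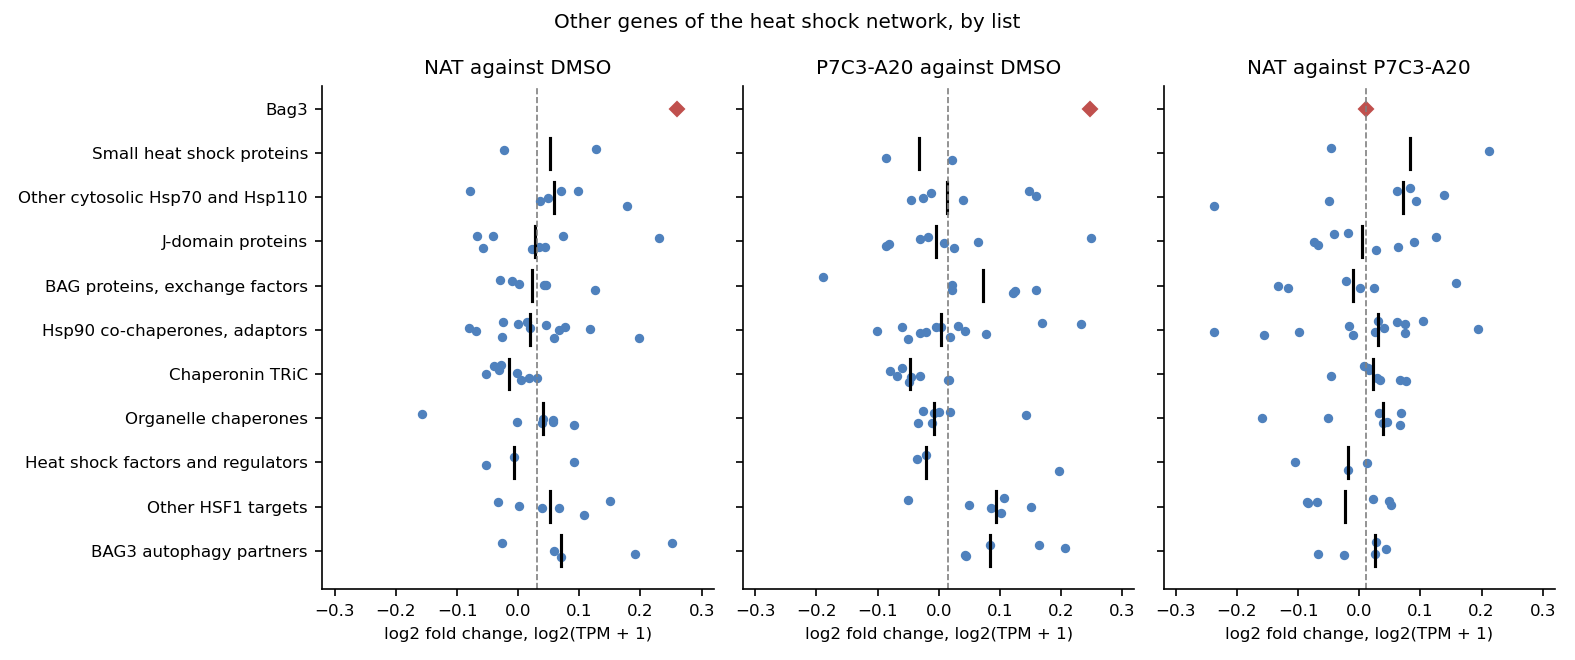
Log2 differences, on the log2(TPM + 1) scale, of 64 network genes in 10 lists for NAT over DMSO, P7C3-A20 over DMSO and NAT over P7C3-A20. Each point is a gene, each black line the median of its list, the dashed line the median of all tested genes (0.03, 0.01 and 0.01), and the diamond is Bag3. Bag3 lies to the right of every list gene for NAT against DMSO, at 0.26 ± 0.05 (SE), with Synpo2 next at 0.25 ± 0.10. It lies close to the highest for P7C3-A20 against DMSO, at 0.25. Bag3 was chosen with these values in view, so its place is a description.

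Genes with a course like that of Bag3 were sought among 10223 tested genes that varied at least moderately, by the root mean square difference of centred log2(TPM + 1) profiles over the 9 libraries. The 5 nearest were Adamts9 at 0.0390, Cdkn1a at 0.0426, Camkk1 at 0.0427, Ptprn at 0.0430 and Kif1c at 0.0432, where the profile of Bag3 itself had an SD of 0.14. Adamts9, a secreted metalloprotease, averaged 26.8 ± 0.873 TPM with NAT, 27.7 ± 0.382 TPM with P7C3-A20 and 23.3 ± 1.02 TPM with DMSO. Cdkn1a, an inhibitor of the cell cycle kinases, averaged 215 ± 7.73 TPM with NAT, 211 ± 5.44 TPM with P7C3-A20 and 189 ± 6.62 TPM with DMSO. Ptprn, a protein of secretory vesicle membranes, averaged 57.6 ± 3.19 TPM with NAT, 54.4 ± 1.15 TPM with P7C3-A20 and 47.0 ± 0.887 TPM with DMSO. In all 3 the lowest compound library lay above the highest DMSO library, as the search by likeness to Bag3 favours. The same held for Camkk1, an upstream kinase of the calmodulin-dependent kinases, and for the kinesin motor Kif1c.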

How the data were processed

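RNA of 9 libraries was sequenced from an Illumina TruSeq kit, per the labels' protocols. The authors deposited 1 table of TPM for 23420 gene names, in which 27 names had turned into dates. Bowtie 0.12.2 and the builds mm8 and mm9 stand in the submitters' processing notes, with no role given. How reads were counted, and on which annotation, is not given in the sources used here, so reads shared between gene copies may have been split or dropped. Whole reads were recovered from the TPM steps for all 19302 genes with any value (100%, tolerance 0.001 reads) and entered only voom. TPM state no depth, so depth was taken from these reads, whose number limits the precision of low genes.

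Genes with at least 1 TPM in at least 3 libraries were fitted with limma-trend (limma 3.58.1, R 4.3.3) on log2(TPM + 1), with group as the only term, 6 residual degrees of freedom and two-sided moderated tests, Benjamini-Hochberg adjusted. This fold change understates that of low genes. The fits were tested on simulated data. Named genes were the 10 members, the 2 genes of lowest p in each network list and comparison with any gene called, and the 5 genes most like Bag3 whose SD is at least 0.5 times its own. The members and lists were chosen with earlier results of these data known. Transcript GC and shared 50-base stretches came from the longest GENCODE M21 transcript of each name (98.3% matched), and promoters from RefSeq. Alternatives were other scaling, pseudocount, filters, libraries in the fit, robust moderation, a replicate block, GC correction, voom and leaving out each library.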

Additional observations from a re-analysis of the deposited data

How the results depend on the processing

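The Bag3 difference from DMSO was 0.23 to 0.26 for NAT and 0.17 to 0.25 for P7C3-A20 under other processing of all libraries, and 0.23 to 0.29 and 0.21 to 0.28 without 1 library. Filters, robust moderation and the block cannot change a difference of means, so they bear on calls and not on these values. The values of single members that moved by over 1 SD were of Bag3, Hspa8 and Hsp90aa1, under quantile normalization or GC correction. Hspb1, on few reads, ran from -0.16 to 0.42 for NAT against DMSO without 1 library. No fit without 1 library called a member.

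The number of all genes called was 4 between NAT and DMSO, 3 between P7C3-A20 and DMSO and 0 between the compounds, with 1615, 2194 and 2188 genes at an unadjusted p under 0.05. For NAT against DMSO it was 1 with a pseudocount of 0.1, 2 with a minimum of 5 TPM, 7 with only the 6 libraries compared, 28 with voom, and 1 to 11 without 1 library. For P7C3-A20 against DMSO it was 0 with a pseudocount of 0.1, 0 with a minimum of 5 TPM, 5 with only the 6 libraries compared, 248 with voom, and 1 to 10 without 1 library. For NAT against P7C3-A20 it was 5 with only the 6 libraries compared, 322 with voom and 0 to 2 without 1 library. Voom called 1 member for P7C3-A20 against DMSO and 2 network genes for NAT against P7C3-A20. The cause of these differences was not tested.

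The median log2 difference of the members stayed near 0. For NAT against DMSO it was 0.0036 with the GC trend removed, 0.0015 with voom and 0.0161 to 0.0519 without 1 library. For P7C3-A20 against DMSO it was -0.0411 with a minimum of 5 TPM, which kept 7 members, -0.0442 with the GC trend removed, -0.0073 with voom and -0.0047 to 0.0502 without 1 library. For NAT against P7C3-A20 it was 0.0360 with the GC trend removed and -0.0138 to 0.0556 without 1 library.

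Same-numbered libraries of different groups did not deviate together (9 pairs, r -0.0622 to 0.0673), so the numbers were not taken to pair them. With the replicate block the genes called were 3, 7 and 1 in the same order of comparisons, and with the block and the GC trend removed 6, 1 and 0. That last pairing of choices gave members' medians of 0.0036, -0.0442 and 0.0360, and no member was called under the block.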
